A study of Rattus norvegicus with 4 samples.

Results

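The carriers of nutrients, transmitters and ions in the rat retina were followed from 5 to 11 and 20 weeks of age. They were chosen as the probes whose listed gene symbol starts with Slc1a, Slc2a, Slc4a, Slc6a, Slc7a, Slc8a, Slc9a, Slc12a, Slc16a, Slc17a or Slc24a, with no measured value used. The rule met 86 of 22575 probes, which stand for 72 of 9653 genes, and all 72 were measured on every array. Of these, 70 are carriers. Slc4a1ap, an adaptor protein named after its partner Slc4a1, and Slc7a6os, a gene on the strand opposite Slc7a6, start with the same letters but transport nothing, and they are counted with their families unless stated.

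Whole retinas of albino Lewis rats were pooled, and all rats were raised from birth under ordinary laboratory conditions. Each array set an older retina against the 5-week retina, and the labels name no other treatment. RNA of 11-week-old retinas was compared with RNA of 5-week-old retinas on 2 two-colour arrays with the dyes exchanged, and RNA of 20-week-old retinas with RNA of 5-week-old retinas on 2 others. Whether the arrays within a pair carried RNA from different pools is not stated. The p-values reflect only the spread between arrays that remains once a dye effect per gene is removed, pooled over genes, and it could be technical. SDs printed beside them still include the dye effect. With shared extracts there would be 1 pool at each age and nothing to test. The number of arrays limits the precision. A ratio gives no level, so the presence of retinal markers could not be checked.

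Solute carriers are membrane proteins that move small molecules and ions along or against their gradients, often driven by sodium. In the retina, glutamate released by photoreceptors and bipolar cells is loaded into vesicles by the vesicular carriers of the Slc17a family and cleared by the Slc1a family, chiefly in Müller glia. Glucose enters through Slc2a carriers and lactate passes between glia and photoreceptors through Slc16a carriers. Photoreceptor outer segments expel calcium through the potassium-dependent exchangers of the Slc24a family.

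Values are given as log2 ratios, older divided by 5-week retina, after the median named probe of every array was set to 0. A gene's values are given first for the array with the older retina in Cy5 and then for the array with it in Cy3, called the Cy5 array and the Cy3 array. Cy5 over Cy3 is the likely direction of the deposited ratios, because the titles list the Cy5-labelled age first, and all signs depend on it. A gene "passed" when its adjusted p, over all 9652 genes fitted, was under 0.05 in a limma model that also estimated 1 dye effect per gene. In limma without that dye term, 0 of the 72 genes and 0 of all genes passed in any comparison, and 3 of the 72 had an unadjusted p under 0.05 at 11 weeks, 3 at 20 weeks and 1 between 20 and 11 weeks, against 3.8%, 9.2% and 2.8% of all genes. Without centring, as deposited, the median over genes was 0.06 (11 weeks) and 0.29 (20 weeks), and 0 of the 72 then passed at 11 weeks and 1 at 20 weeks. With unnamed probes included in the fit, 0 passed at 11 weeks and 2 at 20 weeks.

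The arrays of a pair often differed in sign. Across named probes, which are not independent replicates, the 11-week arrays correlated at -0.328 once turned to the same direction, and the 20-week arrays at 0.145. The dye effect, the mean of a pair's ratios taken as Cy5 over Cy3, had a median size of 0.17 among the 72 genes at 11 weeks and 0.13 at 20 weeks, against median changes of 0.088 and 0.13 in size. Over all genes, the median sizes were 0.13 and 0.12 for the dye effect and 0.094 and 0.13 for the change. The dye effect exceeded the mean change in 43 of the 72 genes at 11 weeks, 59.7% against 59% of all genes. At 20 weeks it did so in 36, 50% against 45.8%. Slc4a4, the electrogenic sodium bicarbonate cotransporter, lay at -0.46 and 0.67 at 11 weeks and at -0.60 and 0.36 at 20 weeks. Slc6a11, the GABA transporter GAT-3, lay at 0.52 and -0.46 and at 0.44 and -0.40. Each of these genes changed sign with the dye at both ages, as the plot of both arrays of each pair shows, and neither passed.

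**Figure D1:**
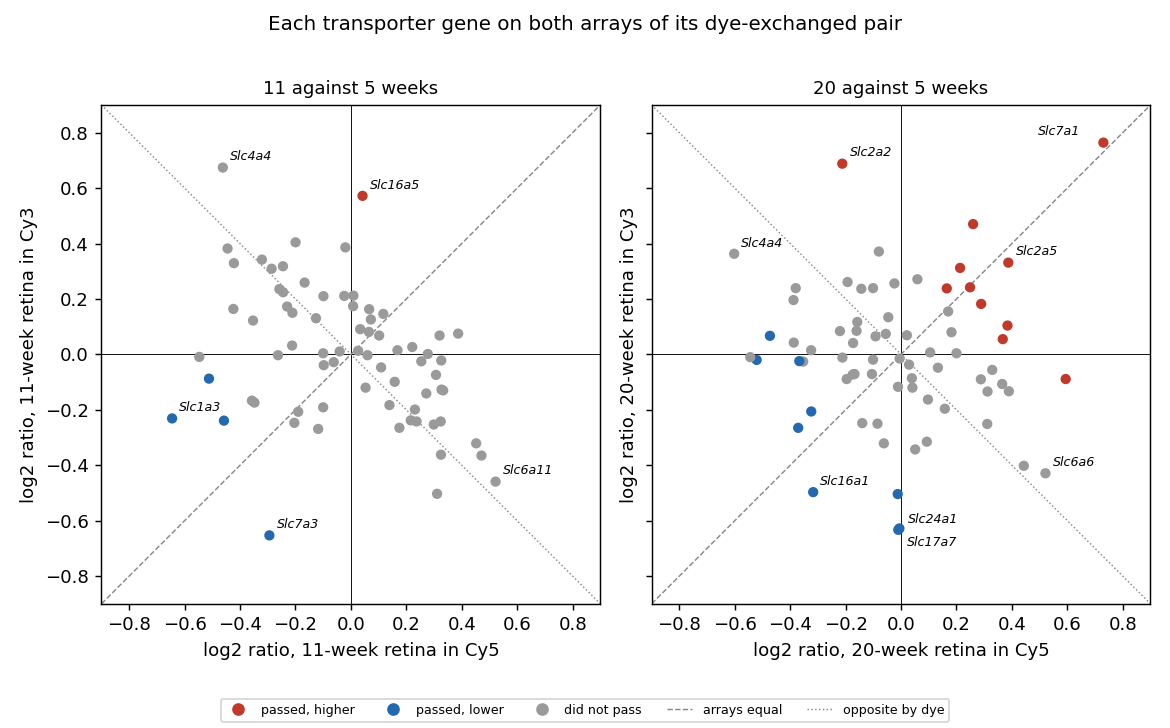
Each point is one of the 72 genes, with its log2 ratio (older over 5-week retina) on the Cy5 array on the horizontal axis and on the Cy3 array on the vertical axis, at 11 weeks (left) and 20 weeks (right). Points near the dotted line have opposite values on the 2 arrays, as Slc4a4 and Slc6a11 do at 11 weeks, and Slc7a1 at 20 weeks lies close to the dashed line of equal values at 0.73 and 0.76.

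At 11 weeks, 1 of the 72 genes passed as higher and 4 as lower, which is 6.94%, against 8.95% of all genes (2.61% higher and 6.34% lower). At 20 weeks, 11 passed as higher and 9 as lower, 27.8% against 31.7% of all genes (17.8% higher and 13.9% lower). Between 20 and 11 weeks, 1 passed as higher and 0 as lower, 1.39% against 4.73% of all genes (3.55% higher and 1.18% lower). At an unadjusted p under 0.05 the 72 genes gave 14, 28 and 16 in these 3 comparisons, against 27%, 43.9% and 20.2% of all genes. These shares lie near the background, so the counts say nothing particular to transporters. The median change of the 72 genes was 0.018 at 11 weeks and -0.016 at 20 weeks, against 0.018 and 0.013 over all genes. Both arrays lay on one side of 0 in 29 of the 72 genes at 11 weeks, 40.3% against 40.7% of all genes, and in 36 at 20 weeks, 50% against 53.8%. Among the genes that passed, this held for 5 of 5 at 11 weeks and 17 of 20 at 20 weeks, against 91.1% and 85.3% of all genes that passed. A total of 50 genes passed in no comparison, a count without a share of all genes beside it, so it says nothing particular to transporters. In whole retina, fewer cells of a type and less RNA per cell cannot be told apart. A value given below without 1 array takes the dye effect from the other pair and has no test.

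**Figure D2:**
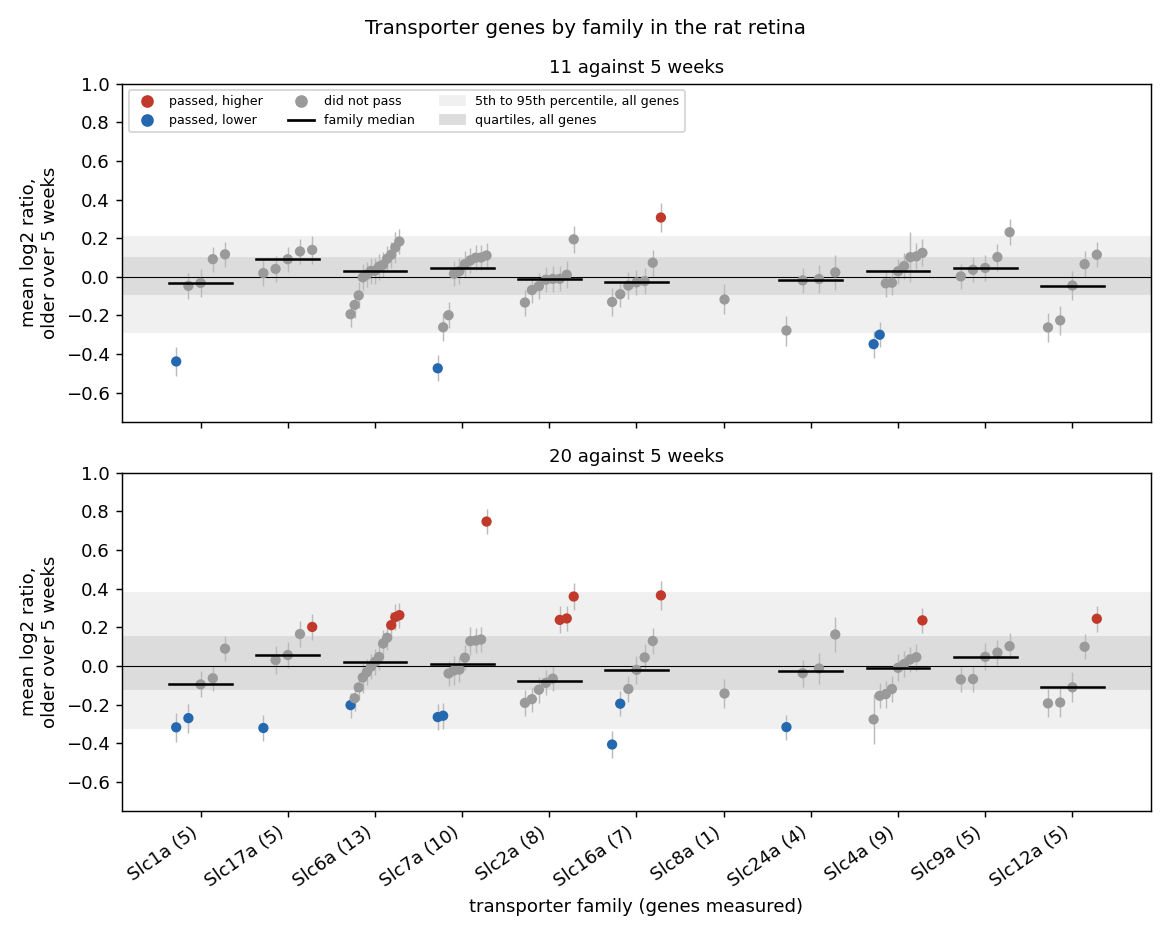
Mean log2 ratio (older over 5-week retina) for each of the 72 genes, by family, at 11 weeks (top) and 20 weeks (bottom). Bars are standard errors from the limma model with a dye term, black lines are family medians, and grey bands show the quartiles (darker) and the 5th to 95th percentile (lighter) of all genes. Slc7a1 stands above the other genes at 20 weeks, at 0.75.

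Cationic and heterodimeric amino acid carriers, the Slc7a family, held the gene with the largest change. Slc7a1 encodes CAT-1, which takes up arginine, lysine and ornithine. It lay at 0.072 and 0.13 on the 11-week arrays and at 0.73 and 0.76 on the 20-week arrays. Both 20-week values were far above both 11-week values, and the arrays of each pair differed little. The mean at 20 weeks was 0.75 ± 0.024 (SD, n = 2), a 1.68-fold higher ratio with an adjusted p of 8.59e-05. At 11 weeks it did not pass, at 0.099 ± 0.038 (SD, n = 2) with an adjusted p of 0.355. It was the only one of the 72 genes to pass between 20 and 11 weeks, by 0.65 with an adjusted p of 0.0032, and it was also past the threshold at 20 weeks as deposited and with unnamed probes included. It did not pass between 20 and 11 weeks under those settings. Every array was a chip of its own, so chip and age cannot be told apart there.

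The bases before the start of Slc7a1 are shown because they hold a match to the amino acid response element, a sequence through which the transcription factor ATF4 induces genes when amino acids are short. They are set beside those of the 3 genes that lay lowest at 20 weeks and have a single window in the table, Slc16a1, Slc17a7 and Slc24a1, and all 4 were chosen after their values were seen. Each is the 250 bases before the RefSeq gene start in the GRCr8 assembly, taken from the BN/NHsdMcwi strain and not from Lewis rats, 5′ to 3′ on the gene's strand. Capitals mark matches on either strand to TAATCC (core of the site bound by the photoreceptor factor CRX), TGATGNAA (core of the amino acid response element), CACGTG (E-box) and GGGCGG (GC box).
Slc7a1 (chr12:11664238-11664487, plus strand): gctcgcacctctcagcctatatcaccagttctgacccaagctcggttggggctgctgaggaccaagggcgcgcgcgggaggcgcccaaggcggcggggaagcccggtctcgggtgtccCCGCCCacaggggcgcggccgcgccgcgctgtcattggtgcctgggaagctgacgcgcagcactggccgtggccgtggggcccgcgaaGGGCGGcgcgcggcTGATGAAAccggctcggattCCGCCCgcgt
Slc16a1 (chr2:194812410-194812659, plus strand): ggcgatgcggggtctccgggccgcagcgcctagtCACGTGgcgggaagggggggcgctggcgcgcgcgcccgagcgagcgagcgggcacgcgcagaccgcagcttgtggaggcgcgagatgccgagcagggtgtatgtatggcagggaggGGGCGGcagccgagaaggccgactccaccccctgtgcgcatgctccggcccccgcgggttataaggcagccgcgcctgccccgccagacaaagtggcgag
Slc17a7 (chr1:104785955-104786204, plus strand): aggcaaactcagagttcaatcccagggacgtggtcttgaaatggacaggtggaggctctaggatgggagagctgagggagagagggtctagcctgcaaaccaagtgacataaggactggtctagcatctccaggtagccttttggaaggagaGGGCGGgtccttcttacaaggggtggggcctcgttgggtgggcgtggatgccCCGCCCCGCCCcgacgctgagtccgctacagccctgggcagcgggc
Slc24a1 (chr8:74361208-74361457, minus strand): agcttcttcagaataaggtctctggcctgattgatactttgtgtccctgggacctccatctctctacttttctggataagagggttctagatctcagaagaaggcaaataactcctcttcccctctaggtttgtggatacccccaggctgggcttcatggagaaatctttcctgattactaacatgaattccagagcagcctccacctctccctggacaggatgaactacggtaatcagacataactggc
In Slc7a1 the amino acid response element core spans bases 30 to 23 before the start and follows a GC box at bases 44 to 39, with further GC boxes at bases 132 to 127 and 10 to 5. Slc16a1 has an E-box at bases 216 to 211 and a GC box at bases 100 to 95. In Slc17a7 there are GC boxes at bases 98 to 93, 46 to 41 and 41 to 36, the last 2 sharing a base, and these letters are not in the Slc24a1 window.

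Windows were found for 58 of the 72 genes. The amino acid response element core was in those of 2 genes, Slc7a1 and Slc9a9, against 3.4% of 33469 windows of that length, and Slc9a9 lay at 0.047 at 20 weeks and did not pass. The CRX core was in those of 5 genes, against 6.34% of windows: Slc1a2, Slc24a4, Slc6a5, Slc9a2 and Slc9a3. An E-box was in those of 8 genes, against 5.59%, and a GC box in those of 25, against 30.5%. These counts are of the 58 genes, which had 62 windows, and a gene was counted when any of its windows matched. The percentages are of single windows, an unlike measure, and the counts were not tested against them. A match describes these letters and is no evidence of binding.

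Elsewhere in the Slc7a family, Slc7a3, which encodes the neuronal cationic carrier CAT-3, was lower at both ages. Its values were -0.29 and -0.65 at 11 weeks and -0.012 and -0.50 at 20 weeks, so every array was below 0, with the Cy5 array at 20 weeks close to it. The means were -0.47 ± 0.25 (SD, n = 2) with an adjusted p of 0.0052, and -0.26 ± 0.35 (SD, n = 2) with an adjusted p of 0.0172, the latter turning to 0.018 as deposited. Slc7a9, the light chain of the renal cystine carrier, lay at 0.009 and 0.21 at 11 weeks and at -0.32 and -0.21 at 20 weeks. It changed side between the ages on both arrays. It passed as lower at 20 weeks, at -0.27 ± 0.083 (SD, n = 2) with an adjusted p of 0.0143, but lay at 0.011 as deposited, and its difference of -0.38 between 20 and 11 weeks did not pass (adjusted p 0.0502).

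The remaining Slc7a carriers did not pass at either age. Slc7a5, the large neutral amino acid carrier LAT1, lay at -0.19 and -0.21 at 11 weeks and at 0.041 and -0.12 at 20 weeks, with an adjusted p of 0.0906 at 11 weeks. Slc7a6, a partner of the same heavy chain as LAT1, lay at -0.35 and -0.17 and at 0.039 and -0.086, with an adjusted p of 0.0543 at 11 weeks. These were the closest to the threshold, and both were below 0 on both 11-week arrays. Slc7a11, the cystine-glutamate exchanger xCT that feeds glutathione synthesis, lay at 0.23 and -0.20 and at 0.16 and -0.20, opposite in sign by dye. Slc7a2, Slc7a7 and Slc7a8 had means of 0.13, 0.043 and 0.13 at 20 weeks, and Slc7a6os of 0.14. Over its 10 genes, the family's median was 0.048 at 11 weeks and 0.012 at 20 weeks, with 0 higher and 1 lower, then 1 higher and 2 lower. The shares of all genes were 2.61% higher and 6.34% lower, then 17.8% and 13.9%.

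Glutamate uptake carriers of the Slc1a family had 1 of 5 genes lower at 11 weeks and 2 lower at 20 weeks, with none higher. Among all genes, 6.34% passed as lower at 11 weeks and 13.9% at 20 weeks. Slc1a3 encodes GLAST, the main glutamate carrier of Müller glia. It lay at -0.65 and -0.23 on the 11-week arrays and at -0.37 and -0.27 on the 20-week arrays, below 0 on all 4. Its means were -0.44 ± 0.29 (SD, n = 2), a 1.35-fold lower ratio with an adjusted p of 0.00942, and -0.32 ± 0.075 (SD, n = 2) with an adjusted p of 0.0107. It was at -0.28 without the 11-week Cy5 array and at -0.16 without the 20-week Cy3 array. Slc1a2 encodes GLT-1, carried by cones and bipolar cells in the retina and by astrocytes in the brain. Its values were -0.45 and 0.38 at 11 weeks and -0.52 and -0.02 at 20 weeks, opposite by dye at the younger of these ages and both below 0 at 20 weeks. It passed as lower at 20 weeks, at -0.27 ± 0.35 (SD, n = 2) with an adjusted p of 0.0223, but was at -0.11 without the Cy3 array, -0.43 without the Cy5 array and 0.006 as deposited.

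The other Slc1a genes did not pass. Slc1a1, the neuronal carrier EAAC1, lay at -0.42 and 0.33 and at -0.39 and 0.20, each pair with opposite signs. Slc1a5, the neutral amino acid exchanger ASCT2, lay at 0.17 and 0.015 at 11 weeks and at -0.011 and -0.12 at 20 weeks, above 0 at the first and below it at the second, with a difference of -0.16 (adjusted p 0.382). Slc1a6, a carrier of Purkinje cells in the brain, had the family's highest value at 20 weeks, 0.089. The family's median was -0.032 at 11 weeks and -0.096 at 20 weeks.

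Müller cell and astrocyte markers gave these values beside the Slc1a genes. Of 7 measured markers of 8 listed, 3 passed as lower and 0 as higher at 11 weeks, and 4 as lower and 1 as higher at 20 weeks. The shares of all genes were 6.34% lower and 2.61% higher, then 13.9% and 17.8%. List medians were -0.052 and -0.33 on the 20-week arrays. Glul, which encodes the glutamine synthetase that Müller cells use on the glutamate taken up, lay at -0.28 and -0.62 and at -0.052 and -0.84, and its mean was -0.45 at 11 weeks and -0.45 at 20 weeks. Without the Cy5 array at 11 weeks it was at -0.23, and without the Cy3 array at 20 weeks at -0.22. The part of these markers in the Slc1a3 values was not tested.

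Of the vesicular carriers of glutamate, VGLUT1 passed and VGLUT2 did not, a difference that was not tested. Slc17a7 encodes VGLUT1, which fills the vesicles of photoreceptors and bipolar cells. Its values were 0.32 and -0.24 at 11 weeks and -0.01 and -0.63 at 20 weeks. At 20 weeks the Cy3 array was far below 0 and the Cy5 array at about 0, while the 11-week arrays lay on either side of it. It passed as lower at 20 weeks, at -0.32 ± 0.44 (SD, n = 2) with an adjusted p of 0.00593, a 1.25-fold lower ratio, and not at 11 weeks (0.041, adjusted p 0.715). The difference between both ages, -0.36, did not pass (adjusted p 0.0555). Slc17a6, VGLUT2 of ganglion cells, lay at 0.026 and 0.013 and at 0.10 and 0.007, all 4 close to 0.

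Slc17a3, a renal organic anion carrier, passed as higher at 20 weeks, with values of 0.17 and 0.24, a mean of 0.20 ± 0.052 (SD, n = 2) and an adjusted p of 0.04. Its 11-week values, 0.12 and 0.15, were above 0 too. Slc17a1, a related renal phosphate and urate carrier, lay at 0.059 and 0.27 at 20 weeks and did not pass (adjusted p 0.0784). Slc17a5, the lysosomal sialic acid carrier sialin, was at 0.03 at 20 weeks, with 2 probes at -0.18 and 0.24. The family's median was 0.091 at 11 weeks and 0.056 at 20 weeks. At 20 weeks 1 of 5 genes passed in each direction, against 17.8% of all genes as higher and 13.9% as lower.

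Carriers of GABA, glycine, monoamines, taurine, creatine and proline, the Slc6a family, had 0 of 13 genes past the threshold at 11 weeks, against 8.95% of all genes. At 20 weeks 3 passed as higher and 1 as lower, against 17.8% and 13.9%. Slc6a20a, a carrier of proline and related imino acids, lay at 0.21 and 0.31 on the 20-week arrays, both above its 11-week values of 0.034 and 0.091. Its mean was 0.26 ± 0.07 (SD, n = 2) with an adjusted p of 0.0143. The 2 probes of Slc6a20a went opposite ways between the ages. From 11 to 20 weeks, the mean of 1 probe rose from -0.06 to 0.45, while that of the other fell from 0.18 to 0.076. Slc6a2, the noradrenaline transporter, lay at 0.59 and -0.089 at 20 weeks and at 0.47 and -0.36 at 11 weeks. It passed as higher at 20 weeks (0.25 ± 0.48 (SD, n = 2), adjusted p 0.0193) although its arrays lay on both sides of 0. Slc6a7, the brain proline transporter, lay at 0.37 and 0.055 at 20 weeks, with a mean of 0.21 ± 0.22 (SD, n = 2) and an adjusted p of 0.0388, and at 0.13 without the Cy3 array. Slc6a5, the glycine transporter GlyT2 of glycinergic neurons, lay at -0.47 and 0.067 at 20 weeks and at -0.29 and 0.31 at 11 weeks, changing sign with the dye at both ages. It passed as lower at 20 weeks (-0.20 ± 0.38 (SD, n = 2), adjusted p 0.0391) but was at 0.073 as deposited.

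The other 9 Slc6a genes did not pass. Slc6a9, GlyT1 of glycinergic amacrine cells, lay at 0.11 and -0.047 and at 0.029 and -0.037, within a narrow range around 0. The mean of Slc6a11 was 0.032 at 11 weeks and 0.021 at 20 weeks, with 95% intervals of ± 0.15 and ± 0.15. Slc6a6, the taurine transporter on which photoreceptors depend, lay at 0.31 and -0.50 and at 0.52 and -0.43, with means of -0.096 and 0.046. Both of these genes had opposite signs by dye at each age. Slc6a8, the creatine transporter, was below 0 on all 4 arrays, at -0.12 and -0.27 and at -0.085 and -0.25, and missed the threshold with adjusted p values of 0.0898 and 0.0742. The dopamine transporter Slc6a3 and the serotonin transporter Slc6a4 were at -0.06 and 0.12 at 20 weeks, and Slc6a15, Slc6a17 and Slc6a18 at -0.033, -0.11 and 0.15. The 2 probes of Slc6a17, a carrier of synaptic vesicles, lay at -0.46 and 0.24, the widest gap among the 12 genes with several probes. The median of Slc6a was 0.032 at 11 weeks and 0.021 at 20 weeks.

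Sugar carriers of the Slc2a family had 0 of 8 genes past the threshold at 11 weeks, against 8.95% of all genes. At 20 weeks 3 passed as higher and 0 as lower, against 17.8% and 13.9%. None of the 3 is a main glucose carrier of the retina. Slc2a5, the fructose carrier GLUT5, which microglia also express, lay at 0.32 and 0.068 at 11 weeks and at 0.39 and 0.33 at 20 weeks, above 0 on all 4 arrays. Its mean at 20 weeks was 0.36 ± 0.04 (SD, n = 2), a 1.28-fold higher ratio, with an adjusted p of 0.00441. Slc2a4, the insulin-responsive GLUT4 of muscle and fat, lay at -0.098 and -0.039 at 11 weeks and at 0.25 and 0.24 at 20 weeks. It was below 0 on both 11-week arrays and above it on both 20-week arrays. It passed at 20 weeks (0.25 ± 0.0049 (SD, n = 2), adjusted p 0.0193), while its difference of 0.31 between both ages did not (adjusted p 0.0885). Slc2a2, the GLUT2 of liver and pancreatic islets, lay at -0.21 and 0.69 at 20 weeks, on both sides of 0. It passed as higher (0.24 ± 0.64 (SD, n = 2), adjusted p 0.0288) but was at 0.12 without the Cy3 array.

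Slc2a1, GLUT1 of the pigment epithelium, Müller cells and photoreceptors, lay at -0.24 and 0.22 at 11 weeks and at -0.39 and 0.043 at 20 weeks. Slc2a3, the neuronal GLUT3, lay at 0.22 and -0.24 and at -0.062 and -0.32. Neither passed, with means of -0.17 ± 0.15 and -0.19 ± 0.15 (95% interval) at 20 weeks and adjusted p values of 0.0685 and 0.0574. Slc2a13, the proton-coupled myo-inositol carrier, was at -0.12, with 1 probe at -0.33 that passed when probes were fitted singly and 1 at 0.082. Slc2a6 and Slc2a8 were at -0.088 and -0.066. The family's median, -0.077 at 20 weeks, was below 0 although each gene that passed was higher.

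Markers of other tissues gave these values beside the sugar carriers. As a background, 17.8% of all genes passed as higher at 20 weeks and 2.61% at 11 weeks. Of 4 measured skeletal muscle markers, 3 passed as higher at 20 weeks and 0 at 11 weeks, with list medians of 0.45 and 0.27 on the 20-week arrays and -0.12 and -0.19 on the 11-week arrays. The muscle oxygen carrier Mb lay at 0.54 and 0.37 and the fast troponin Tnni2 at 0.45 and 0.36 at 20 weeks. Of 5 measured microglia markers, 1 passed as higher at 20 weeks, Csf1r at 0.20. Of 3 measured blood markers, 1 passed as higher at 20 weeks, Alas2, whose arrays lay on both sides of 0 at 0.73 and -0.23. Slc4a1, the band 3 anion exchanger of red cells that is also in the rule's list, lay at 0.22 and 0.026 and at 0.021 and 0.069 and did not pass. The part of these markers in the results was not tested.

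Lactate and related carriers of the Slc16a family held both the lowest of the 72 genes at 20 weeks and the only one that passed as higher at both ages. Slc16a1 encodes MCT1, which carries lactate and pyruvate across the pigment epithelium, endothelium and neural retina. It lay at 0.17 and -0.27 at 11 weeks, on both sides of 0, and at -0.32 and -0.50 at 20 weeks, well below it on both arrays. It passed as lower at 20 weeks, at -0.41 ± 0.13 (SD, n = 2), a 1.33-fold lower ratio, with an adjusted p of 0.00298, and it also passed with unnamed probes included. Its difference of -0.36 between both ages did not pass (adjusted p 0.0746). Slc16a5, MCT6, a carrier known for drug transport, lay at 0.042 and 0.57 and at 0.26 and 0.47, above 0 on all 4 arrays and higher with Cy3 in each pair. Its means were 0.31 ± 0.37 (SD, n = 2) with an adjusted p of 0.0332, and 0.36 ± 0.15 (SD, n = 2) with an adjusted p of 0.00603. At 11 weeks it was at 0.15 without the Cy3 array and 0.47 without the Cy5 array, and at 20 weeks at 0.20 without the Cy5 array.

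Slc16a6, MCT7, passed as lower at 20 weeks (-0.37 and -0.024, mean -0.20 ± 0.24 (SD, n = 2), adjusted p 0.0448) but lay at 0.081 as deposited, and its 3 probes ranged from -0.49 to 0.018. The neuronal lactate carrier MCT2, Slc16a7, lay at 0.065 and 0.081 and at -0.046 and 0.13, and the glycolytic exporter MCT4, Slc16a3, at 0.14 and -0.18 and at 0.36 and -0.11. Slc16a8, MCT3 of the pigment epithelium, lay at -0.42 and 0.16 and at -0.16 and 0.12. None of these 3 passed, nor did Slc16a10, a carrier of aromatic amino acids, at -0.12 at 20 weeks. Of 5 measured markers of pigment epithelium and choroid, 2 passed as higher and 1 as lower at 20 weeks, against 17.8% and 13.9% of all genes. Rpe65, the retinoid isomerase of that epithelium, lay at 0.11 and -0.029 at that age. The family median of Slc16a was -0.029 at 11 weeks and -0.021 at 20 weeks. Of its 7 genes, 1 passed as higher and 0 as lower at 11 weeks, then 1 and 2 at 20 weeks. The shares of all genes were 2.61% higher and 6.34% lower, then 17.8% and 13.9%.

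Among calcium exchangers of photoreceptors and neurons, 1 of 4 Slc24a genes passed at 20 weeks, as lower, and 0 at 11 weeks. The only Slc8a gene passed at neither age. Among all genes, 31.7% passed at 20 weeks and 8.95% at 11 weeks. Slc24a1 encodes NCKX1, which expels calcium from rod outer segments in a complex with the rod cyclic nucleotide-gated channel. Its values were 0.33 and -0.36 at 11 weeks and -0.006 and -0.63 at 20 weeks. As for Slc17a7, the 11-week arrays lay on either side of 0 by dye, and at 20 weeks the Cy5 array was at about 0 and the Cy3 array far below. It passed as lower at 20 weeks (-0.32 ± 0.44 (SD, n = 2), adjusted p 0.0064) and not at 11 weeks (-0.018, adjusted p 0.879), and the difference of -0.30 did not pass (adjusted p 0.104). Of 6 measured rod markers, 3 passed as lower and 0 as higher at each age, with medians of -0.064 and -0.53 on the 20-week arrays. Among all genes, 6.34% passed as lower at 11 weeks and 13.9% at 20 weeks. Cngb1, the channel subunit that binds NCKX1, lay at -0.64 and -0.17 at 20 weeks and passed as lower, at -0.40. The part of the rod markers in the Slc24a1 values was not tested.

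Slc24a2, NCKX2 of cones, lay at -0.55 and -0.009 at 11 weeks and at -0.092 and 0.065 at 20 weeks. It missed the threshold at 11 weeks (-0.28 ± 0.38 (SD, n = 2), adjusted p 0.0542) and was near 0 at 20 weeks. Of 6 measured cone markers, 3 passed as higher and 0 as lower at 20 weeks, against 17.8% and 13.9% of all genes. Cnga3, 1 of the 3, lay on both sides of 0 at 20 weeks, at 0.70 and -0.21. Slc24a4, an exchanger of olfactory neurons and brain, was at 0.16 at 20 weeks and Slc24a3 at -0.038, the latter with 2 probes at -0.26 and 0.19. The sodium-calcium exchanger NCX1, Slc8a1, lay at -0.35 and 0.12 and at -0.20 and -0.089 and did not pass (adjusted p 0.182 at 20 weeks). No other Slc8a gene was among the 72.

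In the Slc4a family of bicarbonate carriers, 0 of 9 genes passed as higher and 2 as lower at 11 weeks, against 2.61% and 6.34% of all genes, and 1 as higher and 0 as lower at 20 weeks, against 17.8% and 13.9%. Slc4a10, a sodium-driven bicarbonate carrier of neurons, lay at -0.51 and -0.087 at 11 weeks and at -0.32 and 0.015 at 20 weeks, and passed at 11 weeks (-0.30 ± 0.30 (SD, n = 2), adjusted p 0.0236). Its 2 probes had means of -0.43 and -0.17 at 11 weeks and, in the same order, -0.019 and -0.29 at 20 weeks. Slc4a1ap, which is no carrier, lay at -0.46 and -0.24 and at -0.005 and -0.015, and passed at 11 weeks (-0.35 ± 0.15 (SD, n = 2), adjusted p 0.0164). Without it and Slc7a6os, 3 of 70 genes passed as lower at 11 weeks. Slc4a3, the anion exchanger AE3 of neurons and Müller cells, lay at 0.29 and 0.18 at 20 weeks, above its 11-week values of 0.06 and -0.003, and passed (0.24 ± 0.076 (SD, n = 2), adjusted p 0.0225).

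The mean of Slc4a4 was 0.11 at 11 weeks and -0.12 at 20 weeks, with a 95% interval of ± 0.15 at 20 weeks. Slc4a2, the widespread anion exchanger AE2, lay at 0.33 and -0.13 and at -0.54 and -0.01. At -0.28 ± 0.38 (SD, n = 2) it was the largest 20-week change that did not pass (adjusted p 0.128), and its dye effect differed most between the pairs among the 72 genes. Slc4a7, a sodium bicarbonate cotransporter of photoreceptor synapses in the mouse, lay at 0.053 and -0.12 and at 0.051 and -0.34. Slc4a5 and Slc4a11 were at 0.0095 and 0.034 at 20 weeks. Sodium-proton exchangers of the Slc9a family had 0 of 5 genes past the threshold at either age, against 8.95% and 31.7% of all genes. Their means ranged from -0.07 for Slc9a2 to 0.10 for Slc9a5 at 20 weeks. Slc9a5, a neuronal exchanger, came closest, at 0.39 and 0.075 at 11 weeks (adjusted p 0.058).

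The cation-chloride carriers that set the direction of the GABA response were both below the median probe at 11 weeks without passing. Slc12a2, NKCC1, which brings chloride into cells, lay at -0.36 and -0.17 at 11 weeks and at -0.14 and -0.25 at 20 weeks. Slc12a5, the neuronal KCC2, which takes chloride out, lay at -0.20 and -0.25 and at 0.093 and -0.32. The adjusted p values were 0.0538 and 0.0679 for Slc12a2 and 0.0925 and 0.292 for Slc12a5. Without the 11-week Cy5 array their 11-week values were -0.11 and -0.043, and without the Cy3 array -0.41 and -0.41. Among the 5 Slc12a genes, 0 passed at 11 weeks and 1 at 20 weeks, against 8.95% and 31.7% of all genes. Slc12a9, a related carrier of little known function, passed as higher at 20 weeks (0.38 and 0.10, mean 0.24 ± 0.20 (SD, n = 2), adjusted p 0.0214). Slc12a3, the thiazide-sensitive carrier of kidney, and Slc12a4, the widespread KCC1, were at -0.19 and 0.099. Their kinases Stk39, Oxsr1 and Wnk1 did not pass, at -0.089, -0.074 and -0.035 at 20 weeks. Family medians of Slc4a, Slc9a and Slc12a were -0.01, 0.047 and -0.11 at 20 weeks.

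**Figure D3:**
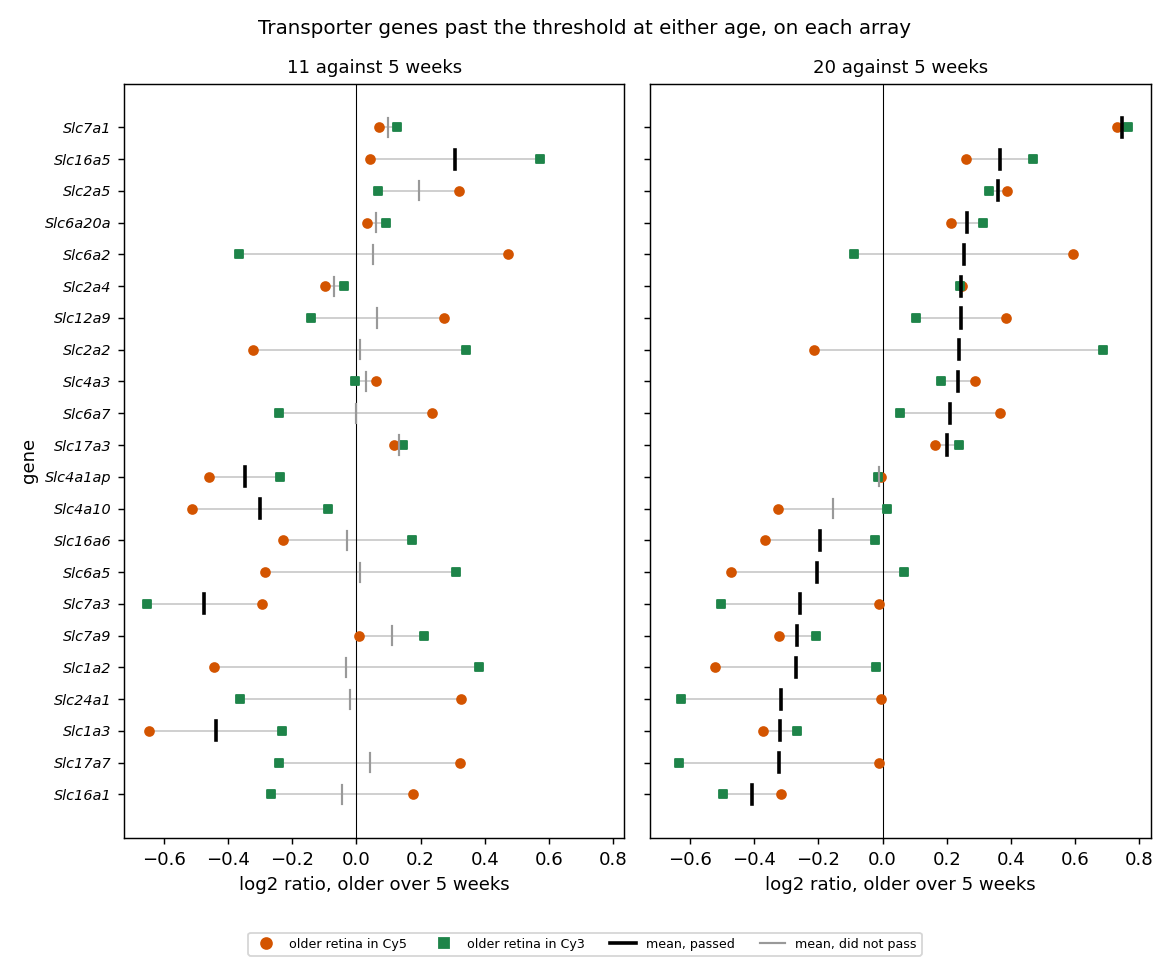
The 22 genes that passed at 11 or 20 weeks, ordered by their 20-week change, with the log2 ratio (older over 5-week retina) on the Cy5 array (circle), on the Cy3 array (square) and as the mean (bar) at each age. At 20 weeks both arrays lie on one side of 0 for all but Slc6a2, Slc2a2 and Slc6a5 among the 20 genes that passed there, 17 of 20 against 85.3% of all genes that passed.

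Across the ages, 3 of the 72 genes passed at both, 4.17% against 5.17% of all genes, with Slc1a3 and Slc7a3 lower and Slc16a5 higher at each. Among all genes that passed at both ages, 95.2% had one direction, and Slc7a3 turned to 0.018 at 20 weeks as deposited. The 11-week and 20-week changes share the 5-week age as their reference, so they are given side by side and not correlated. On all 4 arrays, 17 of the 72 genes lay on one side of 0, which is 23.6%, against 23.7% of all genes. The 20-week arrays lay wholly above or wholly below the 11-week arrays in 13 of the 72 genes, 18.1% against 24.7% of all genes.

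Other carriers and partners were counted from lists chosen for their known link to these families, with earlier results of these data known. Their counts were not tested against the shares of all genes. Of 11 measured vesicular, system A and N amino acid, proton-coupled amino acid and peptide carriers, 5 passed as higher and 1 as lower at 20 weeks and 0 at 11 weeks. Among all genes, 17.8% passed as higher and 13.9% as lower at 20 weeks, and 8.95% in either direction at 11 weeks. Slc38a4, a system A carrier of liver, lay at -0.002 and 0.27 at 11 weeks and at 1.12 and 1.17 at 20 weeks, a mean of 1.15 ± 0.038 (SD, n = 2) with an adjusted p of 1.66e-05. Slc15a1, the intestinal peptide carrier PEPT1, lay at 0.20 and 0.11 and at 0.78 and 0.87, a mean of 0.82 ± 0.064 (SD, n = 2) with an adjusted p of 6.63e-05. Like Slc7a1, both were far higher on both 20-week arrays than on both 11-week arrays, and both passed between 20 and 11 weeks, by 1.01 and 0.67. The system A and N carriers Slc38a2 and Slc38a5 and the lysosomal Slc36a1 also passed as higher at 20 weeks, at 0.33, 0.31 and 0.25. Slc38a3, the glutamine carrier of Müller cells, passed as lower, with -0.40 and -0.37 on the arrays. Slc32a1, which loads GABA and glycine into vesicles, did not pass (-0.18).

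Heavy chains and chaperones of the carriers had 1 of 5 measured genes lower at each age and none higher. The share of all genes that passed as lower was 6.34% at 11 weeks and 13.9% at 20 weeks. Bsg, basigin, which brings MCT1 and other lactate carriers to the membrane, lay at 0.099 and -0.66 at 11 weeks and at 0.055 and -0.78 at 20 weeks, with the Cy3 array far below 0 at both ages and the Cy5 array just above it. Its mean was -0.28 with an adjusted p of 0.0292, then -0.36 with an adjusted p of 0.00337. Slc3a2, the heavy chain of LAT1 and xCT, did not pass (0.073 at 20 weeks). Among 6 measured pump genes, the sodium pump subunits Atp1b2 and Atp1b3 passed as lower at 20 weeks, at -0.51 and -0.29, and Atp1a4 and Atp2b3 as higher, at 0.25 and 0.20. At that age 13.9% of all genes passed as lower and 17.8% as higher. Atp1a4 was at 0.087 without the Cy3 array and 0.41 without the Cy5 array.

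Enzymes that act on the carried transmitters, lactate and glucose had 5 of 8 measured genes lower at each age and none higher, with medians of -0.30 and -0.28. Among all genes, 6.34% were lower at 11 weeks and 13.9% at 20 weeks. Gad1, Glud1, Glul and Ldha passed at both ages, Ldhb at 11 weeks only and Abat at 20 weeks only. Glul was also counted among the Müller cell markers. Abat, which breaks down GABA, lay at -0.57 and -0.63 at 20 weeks and Ldha, which makes lactate, at -0.41 and -0.99. Both lay below 0 on both arrays, and Ldha was at -0.45 without the 20-week Cy3 array. Gad1, which makes GABA and is 1 of the 5 at each age, lay on both sides of 0 in each pair, at -0.94 and 0.24 and at -0.66 and 0.16, and turned to 0.028 at 20 weeks as deposited. With 1 array of its own pair left out, Gad1 was at -0.17 or -0.54 at 11 weeks and at -0.065 or -0.43 at 20 weeks. Of 6 measured carbonic anhydrases, Car2, Car8 and Car14 passed as lower at 20 weeks, at -0.27, -0.33 and -0.39, and Car5b as higher, at 0.21. At that age 13.9% of all genes passed as lower and 17.8% as higher. Car2 was at -0.12 without the Cy3 array and turned to 0.0035 as deposited, and Car5b was at 0.099 without the Cy3 array. Without the Cy5 array they were at -0.43 and 0.32. Of 6 measured sodium-coupled sugar, choline and iodide carriers, Slc5a5 passed as higher at 20 weeks (0.30), against 17.8% of all genes.

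**Figure D4:**
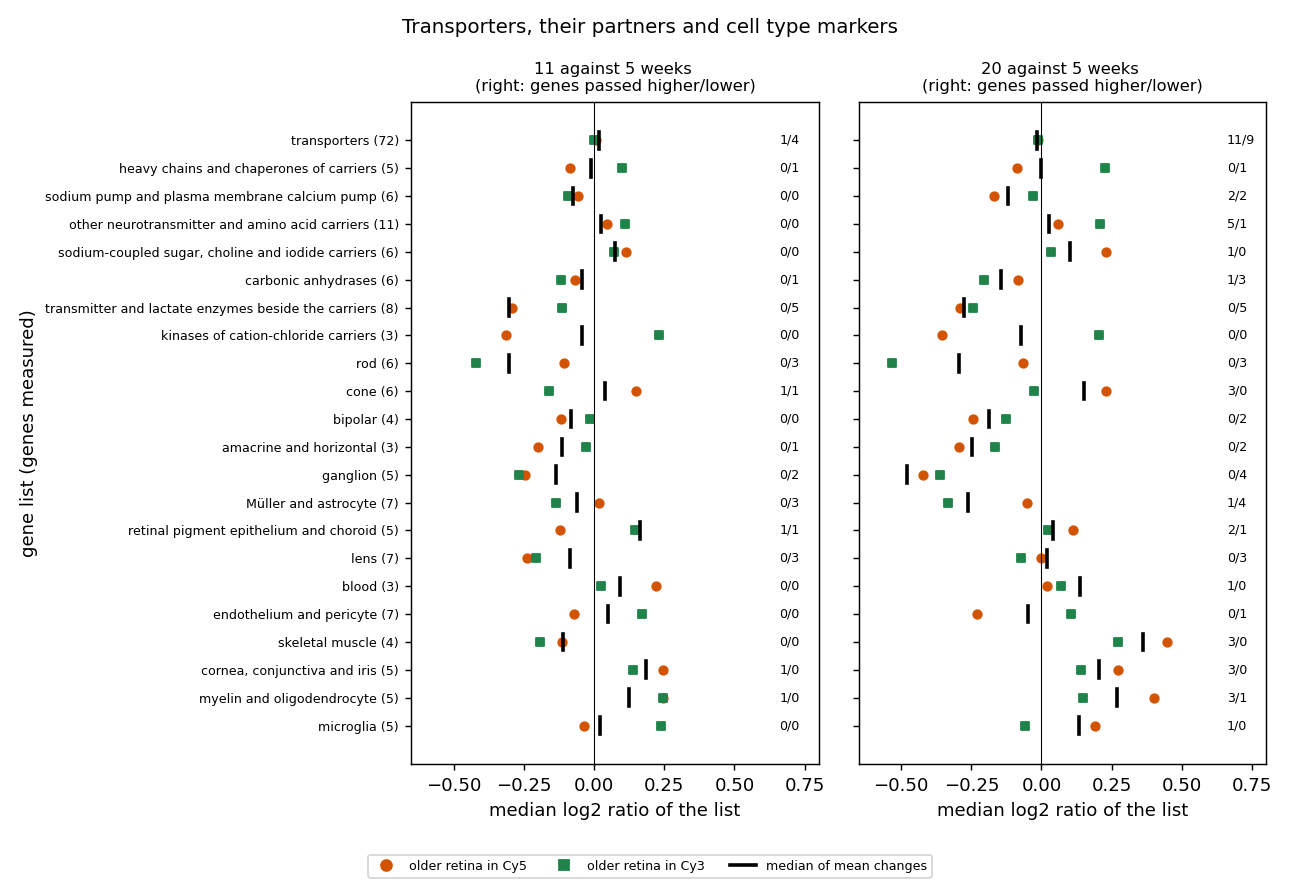
Median log2 ratio of the 72 genes, of the lists of partners and of the lists of cell type markers, on the Cy5 array (circle), on the Cy3 array (square) and of the mean changes (bar), with the number of genes passed as higher and lower at the right. The transporters lie at 0.018 and -0.016, and the enzyme list at -0.30 and -0.28.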

How the data were processed

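Per the labels' protocols, whole retinas were pooled, total RNA was extracted on columns, amplified and labelled with Cy5 or Cy3. What the authors deposited are log2 values comparing both channels, a scale inferred from a ceiling at 100000-fold that unnamed probes reach. Direction, centring, scanner and software were not found in the labels or headers, and without spot intensities detection was not assessed. Array medians over all probes, as deposited, were -0.047, -0.14, 0.55 and -0.032 (11-week Cy5 and Cy3, 20-week Cy5 and Cy3 arrays).

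The platform annotation named the probes (12750 of 22575 with 1 gene, 5 with several, 9820 with none). The gene IDs of all 72 genes were found in the GRCr8 gene table, with 0 symbols changed. Values at the ceiling became missing, the median named probe of each array was subtracted, signs were turned, and probes of a gene were averaged. Both changes and a dye effect were fitted over 4 arrays with limma 3.58.1 in R 4.3.3 (lmFit, eBayes, two-sided, Benjamini-Hochberg over 9652 genes), leaving 1 residual degree of freedom beside a prior of 8.83. On simulated data this model recovered large changes, but unchanged genes were on average a larger share of its calls than the threshold aims at. It made no call when each gene's own residual was taken as its spread, and the model without a dye term made none. Standard errors rest on the dye effects' difference between pairs, SDs include the dye effect. The genes, lists and tests were chosen with earlier results of these data known. Genes were named by a rule (31 measured of 38 carriers with a known retinal role, the highest and lowest that passed, each family's extremes), and other genes are given as values by family. Alternatives were no dye term, other centring, scaling or averaging, unnamed probes in the fit, and leaving out each array. Promoter sequences are RefSeq's (GRCr8).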

Additional observations from a re-analysis of the deposited data

Results flagged for a closer look

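Slc7a1 differed between the ages: its change at 20 weeks exceeded that at 11 weeks by 0.65 (95% interval ± 0.21, adjusted p 0.0032 in the limma model with a dye term), with both 20-week arrays above both 11-week arrays. Without the dye term the adjusted p was 1, and the difference did not pass as deposited or with unnamed probes included. The median of the 7 Slc16a genes lay above 0 on both 11-week arrays, at 0.042 and 0.081, and below 0 on both 20-week arrays, at -0.16 and -0.024. The median of the genes' differences was -0.029, and this difference between the ages was not tested. By the genes' mean changes the family median was -0.029 at 11 weeks, with 2 of 7 genes above 0, and -0.021 at 20 weeks, with 3 of 7 above 0, so these medians do not switch sides.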

How the results depend on the processing

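Among the 72 genes, 1 passed as higher and 4 as lower at 11 weeks, 11 and 9 at 20 weeks, and 1 and 0 between 20 and 11 weeks. Without a dye term all these counts fell to 0, and with no dye term and any 1 array left out they also ranged from 0 to 0. As deposited they were 0 and 0, 1 and 0, and 0 and 0. With unnamed probes in the fit they were 0 and 0, 1 and 1, and 0 and 0. Centring on all probes gave 0 higher at 11 weeks, single probes gave 2 higher at 11 weeks and 2 between 20 and 11 weeks, and robust hyperparameters gave 1 lower between 20 and 11 weeks, Slc7a9. The median change of the 72 genes, 0.018, -0.016 and -0.0047, was 0.0603, 0.26 and 0.23 as deposited, -0.029 and -0.013 at 20 weeks and between the ages when centred on all probes, and 0.000167 to 0.018, -0.042 to 0.0035 and 0.0025 to 0.034 with 1 array left out. As deposited, genes that passed as lower at 20 weeks lay above 0: Slc16a6 at 0.081, Slc1a2 at 0.006, Slc6a5 at 0.073, Slc7a3 at 0.018, Slc7a9 at 0.011, Car2 at 0.0035 and Gad1 at 0.028. By construction this follows from the median gene's shift. With 1 array left out, with or without a dye term, values of genes that changed sign ranged at 20 weeks from -0.21 to 0.69 for Slc2a2, -0.089 to 0.59 for Slc6a2, -0.47 to 0.067 for Slc6a5, -0.78 to 0.055 for Bsg, -0.029 to 0.53 for Atp1a4 and -0.66 to 0.16 for Gad1, and at 11 weeks from -0.66 to 0.099 for Bsg and -0.94 to 0.24 for Gad1. Of 26 results that passed for single transporter genes, 26 did not pass without the dye term, 24 with unnamed probes included, and 3 each with arrays scaled or centred on all probes. No named probe reached the ceiling, so keeping it could change no value, and 150 of 150 single-gene results stayed as they were. Leaving out 1 array with the dye term kept leaves no residual degrees of freedom, so it gives values and no test. No paired analysis was possible because the labels give the arrays no replicate numbers. Depth and signal over background are unknown.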
